A study of Macaca fascicularis with 44 samples.

Results

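Cluster 22 is a group of 74 cells among the 3682 single cells profiled from cynomolgus monkey embryos kept in extended culture. Its members were taken from the authors' deposited annotation: cells whose class is Extraembryonic Mesoderm and whose cluster number at clustering resolution 2 is 22. The class holds 474 cells, so cluster 22 makes up 15.6% of it (95% exact binomial interval 12.5 to 19.2), and the other 400 cells of the class and the 1185 cells of the class named EXMC serve for comparison. The working name of the cluster calls it KCNK17 high, and the KCNK17 counts are given below because most of its cells held none.

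Extraembryonic mesoderm is the loose connective tissue that lines the amnion, the yolk sac and the chorion and fills the connecting stalk, and in primates it forms before or beside the mesoderm of the gastrulating embryo. It lays down fibrillar collagens and hosts the first blood vessels of the placenta and yolk sac. HAND1, FOXF1 and BMP4 are among the genes associated with it. KCNK17 encodes a tandem-pore potassium channel, also known as TALK-2, that lets potassium leak out of cells and opens more at alkaline pH.

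Every embryo in the study was wild type, was made by sperm injection, was chosen as an expanded blastocyst and was grown in vitro. Cells of the dissected embryonic body, from which extraembryonic tissue had been removed before TrypLE digestion, were read by RNA sequencing, so shares of extraembryonic cells also carry what the dissection left behind. The 44 libraries come from 9 embryos: 2 of embryonic day 16 (E16) and 1 each of E18, E20, E21, E22, E23, E24 and E25. The 6 libraries of E20, numbered 34 to 39, all come from 1 embryo, annotated as female. They carry a date code in their cell names that no other day has, so the day, the embryo, its sex and the library code cannot be told apart, and the 6 libraries are repeat samples of 1 embryo rather than separate embryos.

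Libraries 26 and 27, with 149 cells, have labels that disagree on the day and were left out, which leaves 42 libraries and 3533 cells. None of the 74 cells was in those libraries. Within E20 the median cell of cluster 22 had 186183 counts (9709 to 1834831) and 4802 genes, the median EXMC cell 220313 counts and 4829 genes, and the median of the other Extraembryonic Mesoderm cells was lower, at 79064.5 counts and 4157 genes. Cell numbers from 1 to 96 were used again in each library, with 96 of 96 numbers found in more than 1 library, and 0 cells shared an identical profile with another cell.

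Cluster 22 was almost confined to E20. At E20 it held 71 of 518 cells, a share of 13.7% (95% exact binomial interval 10.9 to 16.97, counting error only). One cell of 375 came from E18, a share of 0.267% (0.00675 to 1.48), and 2 of 529 from E22, a share of 0.378% (0.0458 to 1.36). None came from the 441 cells of E21, which allows a share of up to 0.680%, and none from E23 (up to 0.548%), E24 (up to 1.61%), E25 (up to 0.656%) or the first and second E16 embryo (up to 1.44% and 1.10%). The days on either side of E20, E18 and E21, thus held 1 cell and 0 cells of the cluster. Since each of these days is a single embryo, no test over embryos was possible.

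All 6 E20 libraries held the cluster. Libraries 34 to 39 contributed 10 of 90, 18 of 91, 9 of 93, 18 of 93, 9 of 84 and 7 of 67 cells. The mean share over these libraries was 13.5% ± 4.71 (SD, n = 6), from 9.68% to 19.8%. Of the Extraembryonic Mesoderm cells of E20 the cluster took 71 of 97, or 73.2% (63.2 to 81.7), and of EXMC and Extraembryonic Mesoderm together 71 of 154, or 46.1% (38.1 to 54.3). The remaining 26 Extraembryonic Mesoderm cells of E20 lay in clusters 5 and 8, with 17 and 9 cells. The rest of the embryo's cells were mainly trophoblast, with 165 cytotrophoblast (CTB), 164 extravillous trophoblast (EVT) and 28 syncytiotrophoblast (STB) cells beside 57 EXMC cells.

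**Figure D1:**
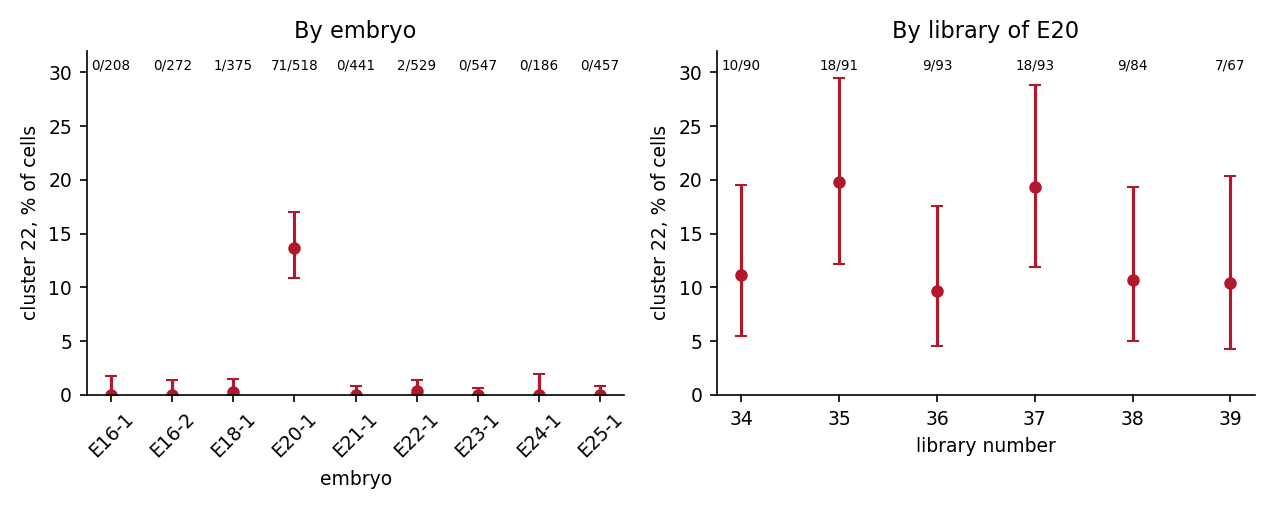
Share of cells in cluster 22, in percent, by embryo (left) and by E20 library (right), with 95% exact binomial intervals as bars and the number of cluster 22 cells on top. E20 stands at 13.7% while E18 and E22 are at 0.267% and 0.378% and the other embryos at 0, and the 6 E20 libraries lie between 9.68% and 19.8%.

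KCNK17 did not mark most cells of the cluster. Libraries 34 to 39 had 0.824, 11.3, 95.3, 47.5, 24.97 and 0 CPM (counts per 1000000 counts) of KCNK17 in their cluster 22 cells, with a count in 1 of 10, 2 of 18, 2 of 9, 3 of 18, 2 of 9 and 0 of 7 cells. Library 36 was highest, libraries 34 and 39 were near or at 0, and 3 counts in library 39 would have been 0.936 CPM. Over the 71 cells of E20 together the level was 28.4 CPM from 540 counts, and 10 cells (14.1%) held a count. The 5 highest cells held 86.1% of those counts, and the highest reached 616 CPM. When each cell was thinned to 30000 counts, 8 of 70 cells (11.4%) held a count, against 0.649% of CTB and 1.56% of EVT cells of E20.

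The channel's counts were nonetheless rare elsewhere in the same embryo. EXMC of E20 had 0 counts in 57 cells. With 3 counts over the group taken as the floor, cluster 22 lay 140-fold above it. That floor treats counts as independent, while those of cluster 22 sat in 10 of 71 cells, with a median of 37 counts each. The 140-fold is therefore not a lower bound for a gene so uneven between cells. The other Extraembryonic Mesoderm cells of E20 had 2 counts, or 0.470 CPM. Across all 26 clusters, KCNK17 reached 27.6 CPM in cluster 22 and 31.97 CPM in the 17 blood cells of cluster 27, from 3 of them. EVT cluster 19 followed with 2.97 CPM, CTB cluster 12 with 1.62 CPM and the other clusters with at most 0.778 CPM. A high level was therefore shared with the blood cluster, and it came from a minority of cells in both.

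The 10 cells with a KCNK17 count were also sequenced more deeply, with a median of 365837 counts against 181492 in the 61 cells without. Their median KISS1 level was 542 CPM against 183 CPM. The collagen gene COL3A1 was alike in both, at 10812 and 10649 CPM. The part of depth in these values was not tested. Among the 15 tandem-pore channel genes of the list, 8 had 0 counts in cluster 22 of E20 and 12 were under 10 CPM.

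**Figure D2:**
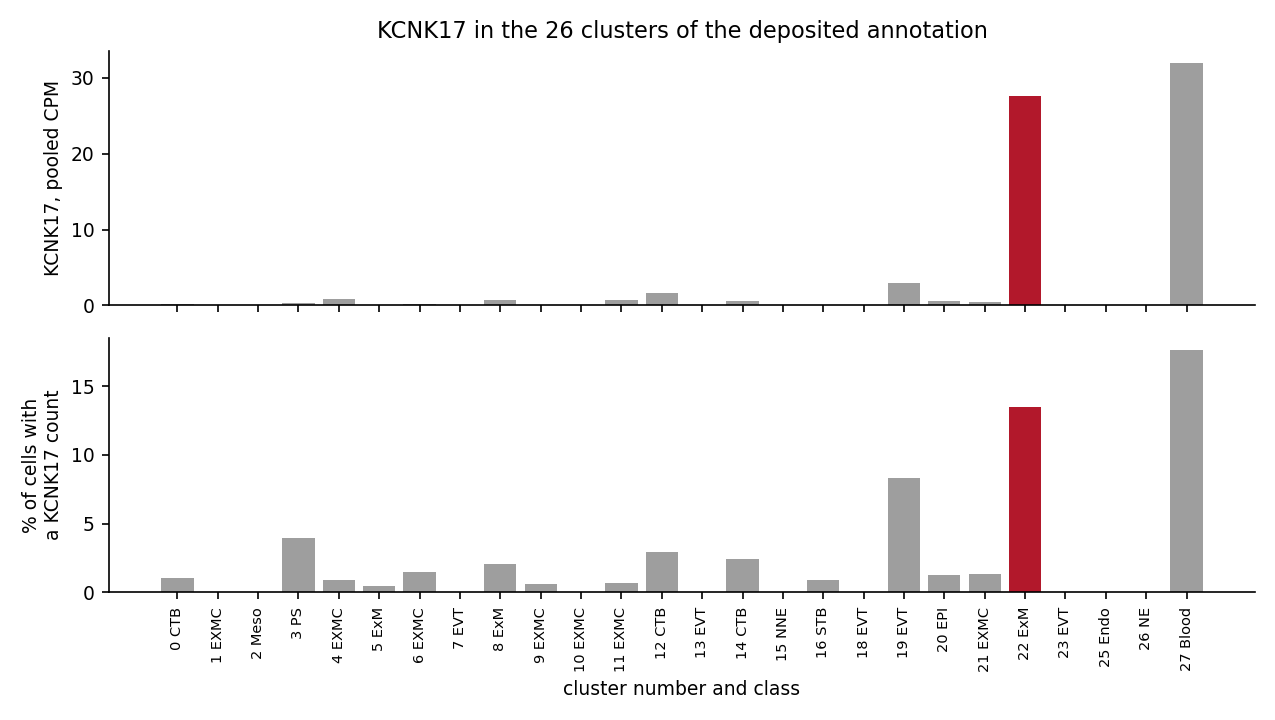
KCNK17 in each of the 26 annotated clusters, as CPM of the pooled cells and as the percent of cells with at least 1 count. Cluster 22 (27.6 CPM, 13.5% of cells) and blood cluster 27 (31.97 CPM, 17.6% of cells) stand above all other clusters, and in neither did most cells hold a count.

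KISS1 was better shared by the cells than KCNK17. KISS1 encodes kisspeptin, a secreted peptide best known from the reproductive axis and from trophoblast. In libraries 34 to 39 cluster 22 had 723, 378, 1334, 1799, 818 and 527 CPM of KISS1, a mean of 929.9 ± 537 (SD, n = 6 libraries of 1 embryo). EXMC of the same libraries had 41.3, 97.3, 69.2, 75.5, 267 and 54.2 CPM, and the other Extraembryonic Mesoderm cells had 239, 31.6, 2.05, 62.1, 1.29 and 54.7 CPM. The lowest cluster 22 library lay above the highest library of either neighbour, so the groups did not overlap. The next cluster in the whole annotation was EXMC cluster 9, with 127 CPM, and EVT cluster 19, a trophoblast group, had 94.4 CPM.

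KISS1 was uneven between cells. A count was found in 60 of 71 cells, with a median of 206 CPM and a highest cell at 15954 CPM, and the 5 highest cells held 60.8% of the counts. After thinning to 30000 counts, KISS1 was left in 64.3% of cluster 22 cells, 40.7% of EXMC cells and 9.09% of CTB cells. The median EXMC cell had 5.71 CPM. Over the 71 cells the Spearman correlation of KISS1 was -0.01 with POSTN, -0.02 with ANGPT2 and 0.28 with DUSP1, a gene described below. These values describe cells that share libraries and depth. KISS1 thus neither rose nor fell with POSTN or ANGPT2 over the cells. Whether the highest cells were the same was not examined.

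**Figure D3:**
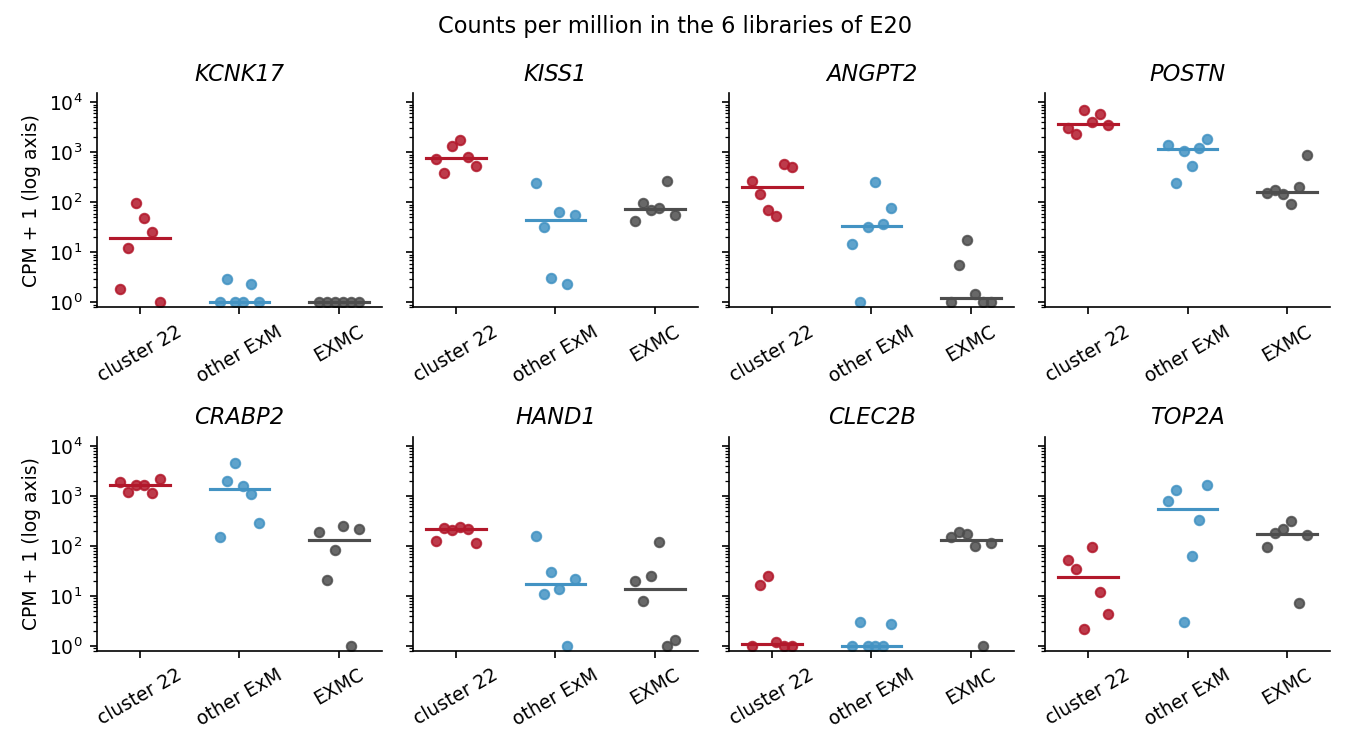
CPM plus 1 on a log axis for 8 genes in each E20 library, in cluster 22, in the other Extraembryonic Mesoderm cells and in EXMC, with a line at the median. KISS1, POSTN and ANGPT2 lie higher in cluster 22 than in EXMC in every library, KCNK17 ranges from 0 to 95.3 CPM, and the median of TOP2A is lowest in cluster 22.

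Cluster 22 was next set against EXMC, the more abundant mesenchymal class, within the same libraries. Library 38 has only 2 EXMC cells, so 5 libraries with 62 and 55 cells entered the fit, with library as a block. Because the clusters were drawn from these same genes, no p-value is given. A gene is counted as higher or lower where it differed at least 2-fold, lay on the same side in every library compared and reached 10 CPM in the higher group. By that description 407 of 9063 genes (4.49%) were higher in cluster 22 and 374 (4.13%) lower. Taking in library 38, with at least 2 cells per library, gave 393 and 110, and leaving out library 39 gave 641 and 581. The median log2 fold change over all genes was 0.02.

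Secreted and surface genes led the higher side. POSTN, which encodes periostin, a matrix protein of embryonic mesenchyme, had 3067, 2359, 6862, 4054, 5713 and 3448 CPM in libraries 34 to 39 of cluster 22, a mean of 4250.4 ± 1710.0 (SD, n = 6). EXMC had 153, 173, 147, 90.9, 206 and 866 CPM. No library overlapped, and the log2 fold change was 4.25 ± 0.50 (SE). ANGPT2, an angiopoietin that acts on the endothelial receptor TEK, had 261, 144, 69.4, 53.1, 590.4 and 508 CPM against 0, 4.71, 16.7, 0.452, 0 and 0 CPM in EXMC, a log2 fold change of 6.25 ± 1.17. ANGPT2 was nearly silent in EXMC and present in 42 of 71 cells of cluster 22. The other Extraembryonic Mesoderm cells of E20 held an ANGPT2 count in 11 of 26 cells. After thinning, a count was left in 47.1% of cluster 22 cells, 40% of those other cells and 5.56% of EXMC cells. The median cluster 22 cell was at 12.3 CPM, and the 5 highest cells held 66.7% of the cluster's ANGPT2 counts.

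CXCL12, a chemokine of stromal cells, had 189, 103, 151, 162, 38.1 and 225 CPM in cluster 22 and at most 6.28 CPM in an EXMC library. The WNT-binding inhibitors SFRP1 and SFRP2 followed the same pattern. SFRP1 had 239.7, 189, 32.4, 152, 118 and 467 CPM, against 36.2 CPM in the highest EXMC library. SFRP2 had 219, 58.3, 288, 51.3, 24.5 and 61.2 CPM, against 21.4 CPM in the highest EXMC library. Their log2 fold changes were 7.26 ± 0.88 for CXCL12, 6.06 ± 1.07 for SFRP1 and 6.05 ± 0.91 for SFRP2.

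Genes of adhesion and of the cell surface were also among the leading ones. CDH3, which encodes P-cadherin, had 60.1, 96.2, 137, 116, 68.6 and 79.0 CPM in cluster 22, and EXMC had 18.99 CPM or less in every library but 38, where its 2 cells reached 239.8 CPM. ITGA8, an integrin subunit of mesenchymal cells, had 189, 86.7, 143, 142, 234 and 71.2 CPM, against at most 22.9 CPM in EXMC. LRRTM3, a leucine-rich transmembrane protein known from synapses, had 149, 33.7, 113, 98.0, 134 and 85.8 CPM, against at most 5.33 CPM. COL11A1, a minor fibrillar collagen, had 115, 104, 59.4, 84.6, 110.0 and 59.6 CPM, against at most 9.49 CPM. These 4 genes were higher in each of the 5 libraries compared, which the rule that named them required.

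Other named genes on the higher side, by log2 fold change, were NXPH2 (7.87), AQP1 (7.02), MGARP (5.81), PCP4L1 (5.37), FYB2 (5.12) and IQCJ-SCHIP1 (4.72). The last is a readthrough gene that overlaps SCHIP1, so its counts are uncertain. AQP1, a water channel of vessels and serosal linings, had 28.8, 166, 82.9, 110.0, 41.9 and 8.12 CPM in cluster 22 and at most 3.77 CPM in EXMC. Against other-day cells of its own class AQP1 was lower in cluster 22, with a log2 fold change of -1.34 ± 0.45. Against the other Extraembryonic Mesoderm cells of E20 the value was 2.76 ± 1.22.

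Some genes abundant in EXMC were low in cluster 22. CLEC2B, a C-type lectin, had 0, 15.7, 24.1, 0.182, 0 and 0 CPM in libraries 34 to 39 of cluster 22, and EXMC had 147, 189, 175, 96.3, 0 and 113 CPM. A CLEC2B count was found in 7 of 71 cluster 22 cells and in 39 of 57 EXMC cells, and after thinning in 5.71% and 61.1%. P2RY14, a receptor for UDP-sugars, had at most 8.37 CPM in cluster 22, and EXMC had 15.4 to 81.2 CPM in the 5 libraries compared. MGP, an inhibitor of matrix calcification, had a log2 fold change of -4.15 ± 0.94. Library 38 was the exception for CLEC2B and P2RY14, where the 2 EXMC cells had none.

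HGF, the hepatocyte growth factor, was abundant in both groups but lower in cluster 22, with 376, 782, 331, 265, 302 and 889 CPM. EXMC had 2711, 3139, 2947, 1554, 898 and 2137 CPM, a log2 fold change of -2.38 ± 0.26. FRZB, another secreted WNT inhibitor, was at 706, 556, 485, 327, 238 and 236 CPM against 1476 to 2132 CPM in EXMC. The WNT inhibitors therefore split, with SFRP1 and SFRP2 higher in cluster 22 and FRZB lower. The remaining named genes on the lower side had log2 fold changes of -4.86 (GNA14), -4.84 (GLB1L3), -4.45 (TRIB3), -4.12 (LMO7), -4.05 (FAM163B), -4.05 (CCNA2) and -3.91 (IGFBP6).

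Transcription factors of extraembryonic and lateral plate mesoderm gave a mixed picture. HAND1, a basic helix-loop-helix factor required for yolk sac and heart development, had 123, 222, 208, 232, 218 and 115 CPM in cluster 22, a mean of 186 ± 52.9 (SD, n = 6). EXMC had 19.1, 6.90, 23.8, 117, 0 and 0.303 CPM, so that each cluster 22 library was above its EXMC cells, and the log2 fold change was 3.59 ± 0.77. A HAND1 count was found in 48 of 71 cells and in 18 of 57 EXMC cells, and after thinning in 55.7% and 20.4%. Of the 9 tested genes of the extraembryonic mesoderm factor list, HAND1 was higher, BMP4 and TCF21 were lower and the others met neither description, with a median log2 fold change of -0.21. GATA4 had 0 counts in cluster 22, and GATA6 was at most 10.7 CPM in any library.

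TBX5, a limb and heart factor, was lower in cluster 22, with 7.41, 41.8, 47.6, 14.2, 0 and 2.19 CPM against 125, 179, 63.7, 51.5, 200.3 and 126 CPM. Of 5 tested genes of the cardiac and lateral plate list, TNNT2, TNNI1 and HAND1 were higher and TBX5 lower. TNNT2 and TNNI1 encode sarcomere troponins and were modest, at 20.3 to 62.7 and 2.54 to 58.8 CPM in cluster 22. Of 11 tested HOX genes, which encode factors of position along the body axis, HOXB2, HOXB6, HOXB7 and HOXC8 were higher in cluster 22, HOXA9 and HOXA10 lower and 5 met neither description. HOXB7 had 57.7, 25.6, 14.7, 34.6, 5.08 and 49.0 CPM against 0.452 CPM or less in the 5 EXMC libraries compared. HOXA10 had 51.9, 21.8, 0, 0.182, 0.846 and 24.3 CPM against 68.6 CPM or more in those 5. Both this comparison and that of EXMC between days use the same EXMC sums of E20. Between days HOXA9 rose in EXMC of E20 by 0.84 ± 0.27 on the log2 scale (adjusted p = 0.0182, edgeR), HOXB2 fell by 6.60 ± 1.92 (adjusted p = 0.0102, edgeR) and HOXB7 fell by 4.07 ± 1.34 (adjusted p = 0.0221, edgeR).

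Of 10 tested genes of the retinoic acid list 4 were higher, 1 lower and 5 met neither description, with a median log2 fold change of 1.71. Against other days of the class 1 of 11 was higher and the median was -0.03. CRABP2, a carrier that delivers retinoic acid to the nucleus, had 1929, 1192, 1625, 1630.5, 1159.6 and 2206 CPM in cluster 22 and 184, 19.5, 80.4, 247, 0 and 213 CPM in EXMC. Its median cell was at 1212 CPM against 2.23 CPM. STRA6, the membrane receptor for retinol uptake, had 174, 239, 345, 333, 394 and 255 CPM against at most 151 CPM. DHRS3, a retinal reductase, was also higher, and the receptor gene RARB was lower (log2 fold change -3.57 ± 0.87).

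Signalling lists differed in how many genes lay on either side, beside 4.49% of all tested genes higher and 4.13% lower. In the WNT list WNT11, SFRP1 and SFRP2 were higher and FRZB lower among 11 tested genes. In the BMP list ID1 was higher and BMP2 and BMP4 lower among 9. The list of VEGF, PDGF and KIT ligands and receptors had ANGPT1 and ANGPT2 higher and HGF lower among 10. No gene of the FGF list (8 tested) or the NOTCH list (5 tested) met either description. In the IGF system IGFBP4 was higher and IGFBP6 lower among 9, and IGFBP4, a secreted binding protein, had 122 to 234 CPM against at most 63.9 CPM.

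The summed matrix level of cluster 22 overlapped with that of EXMC. The summed level of 13 mesenchymal matrix genes had a median of 54246 CPM over the 6 libraries of cluster 22 (42475 to 67445) and of 53364 CPM in EXMC (46585 to 58380). Of the 13 genes POSTN was higher, ASPN, a small leucine-rich proteoglycan, was lower and the other 11 met neither description. COL3A1, a main fibrillar collagen, had 10445 to 15771 CPM in cluster 22. In the basement membrane list LAMA1 was higher and LAMA2, NID1 and NID2 lower among 12 tested. LAMA2, a laminin chain of muscle and mesenchyme, had 175, 228, 110.0, 109.9, 48.2 and 111 CPM against 158 to 746 CPM, lower in each library.

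Cell-cycle genes were low in cluster 22. Of 14 tested proliferation genes, 8 were lower than in EXMC (TOP2A, CCNA2, CCNB2, CDK1, MCM2, TYMS, BIRC5 and AURKB) and 0 higher, with a median log2 fold change of -2.36. TOP2A, the topoisomerase of dividing cells, had 50.3, 33.9, 1.18, 96.0, 11.003 and 3.43 CPM, against 93.6, 177, 216, 320.1, 6.07 and 164 CPM in EXMC. The other Extraembryonic Mesoderm cells of the same libraries had 772, 1284, 2.05, 62.1, 335 and 1642 CPM. Library 38 was the exception against EXMC and library 37 against the other Extraembryonic Mesoderm cells. CCNA2, cyclin A2, had 0.624 to 19.8 CPM in cluster 22 and 48.3 CPM or more in the 5 EXMC libraries compared.

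Counted by cell, 6 of 71 cells of cluster 22 (8.45%) had 2000 CPM or more over the 14 proliferation genes. The same held for 9 of 26 other Extraembryonic Mesoderm cells (34.6%), 16 of 57 EXMC cells (28.1%), 125 of 165 CTB cells (75.8%) and 105 of 164 EVT cells (64.0%). The median cell was at 211 CPM in cluster 22, 416 CPM in EXMC and 731 CPM in the other Extraembryonic Mesoderm cells. The cells differ in depth, which was not tested here. No cell was assigned a cell-cycle phase.

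Glucose handling and the stress lists went in different directions. SLC2A1, a widespread glucose transporter, had 1726, 1831, 2956, 3239, 2451 and 1159.9 CPM in cluster 22 and 259, 467, 186, 242, 874 and 844 CPM in EXMC, without overlap. ENO1, the glycolytic enolase, had 2636 to 3725 CPM against 887 to 2396 CPM in the 5 libraries compared. These were the 2 higher genes among 11 tested of the hypoxia and glycolysis list, whose median log2 fold change was 1.18. In the endoplasmic reticulum stress list 0 of 12 were higher and DDIT3, HERPUD1, TRIB3, ASNS and CHAC1 lower, with a median of -0.95. ASNS, which makes asparagine, had 119, 134, 17.1, 65.7, 192 and 25.3 CPM against 199 to 498 CPM.

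**Figure D4:**
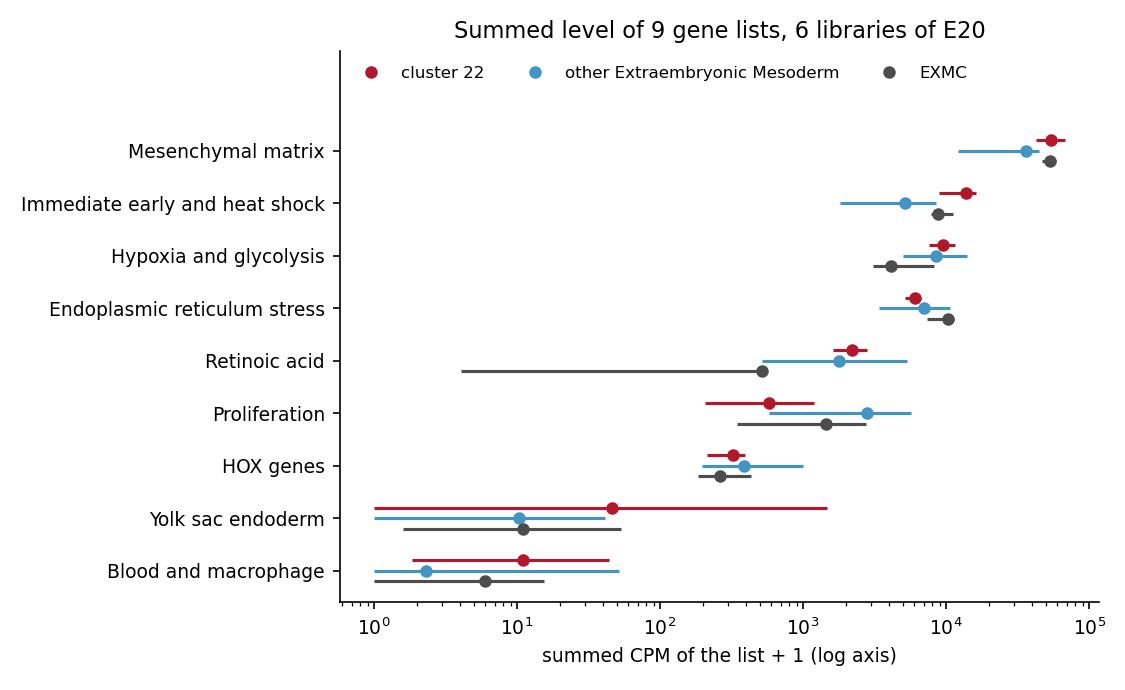
Summed CPM plus 1, on a log axis, of 9 gene lists in cluster 22, the other Extraembryonic Mesoderm cells and EXMC of E20; the point is the median and the line the range over 6 libraries. The matrix sums of cluster 22 and EXMC overlap (medians 54246 and 53364 CPM), the proliferation sum is lowest in cluster 22 (median 580.4 CPM) and its immediate early sum is highest (median 13881 CPM).

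The rest of the Extraembryonic Mesoderm class came mostly from other days, which makes that comparison one of days as well as of cells. Here the 6 cluster 22 sums of E20 were set against 12 libraries of E18, E21 and E22 with 300 cells. By the same description 376 of 10205 genes (3.68%) were higher in cluster 22 and 940 (9.21%) lower, with a median log2 fold change of 0.04 over all genes. Within E20 alone, 71 cells could be set against the 26 other cells of the class in the same 6 libraries, with library as a block. There 285 of 6763 genes (4.21%) were higher and 47 (0.695%) lower, with a median of 0.50. The excess of lower genes was seen only against the other days, and the 26 cells are fewer and shallower than cluster 22.

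KISS1 was among the highest in both views. The other-day libraries had 0 to 93.5 CPM (median 14.7), and the log2 fold change was 5.20 ± 0.63, beside 4.73 ± 0.83 against the other E20 cells. ANGPT2 had 1.76 to 60.2 CPM in other-day libraries (median 21.04), with log2 fold changes of 3.50 ± 0.49 and 2.88 ± 0.92. POSTN had 691 to 2659.8 CPM in other-day libraries (median 2060.1) and log2 fold changes of 1.10 ± 0.23 and 2.23 ± 0.37. KISS1 was thus higher in every cluster 22 library than in any library of either set of its own class. POSTN met the description of higher against both sets, but its lowest cluster 22 library lay within the range of the other-day libraries. ANGPT2 in library 37 was lower than in the other E20 cells.

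Many genes that parted cluster 22 from EXMC did not part it from its own class. CRABP2 had 603 to 2986 CPM in other-day Extraembryonic Mesoderm, with a log2 fold change of -0.03 ± 0.30. CXCL12 had 29.3 to 288 CPM there, SFRP1 47.7 to 324 CPM and COL11A1 47.0 to 126 CPM, ranges that overlapped those of cluster 22. HAND1 was at 117 to 546 CPM in other days, with a log2 fold change of -0.77 ± 0.23. For these genes cluster 22 overlapped with other-day libraries of its class. Against the other Extraembryonic Mesoderm cells of E20, where the median over all genes was 0.50, the log2 fold changes were 0.69 ± 0.54 for CRABP2 and 0.22 ± 1.00 for CXCL12. They were 1.89 ± 0.72 for SFRP1, 3.53 ± 0.95 for HAND1 and 6.31 ± 1.63 for COL11A1, which had a count in 41 of 71 cluster 22 cells and 3 of 26 of the others. LRRTM3 and ITGA8 had log2 fold changes of 2.39 ± 0.34 and 1.10 ± 0.28 against the class, and higher values against EXMC.

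Over pooled levels of all libraries the nearest cluster was one of its class, with an EXMC cluster next. The Spearman correlation of pooled levels with cluster 22 over 9280 genes was 0.909 for Extraembryonic Mesoderm cluster 5, 0.891 for EXMC cluster 1 and 0.888 for Extraembryonic Mesoderm cluster 8. Within E20 alone, over 8068 genes, EXMC was nearer (0.877) than the other Extraembryonic Mesoderm cells (0.839), and EVT, STB and CTB were farther (0.677, 0.643 and 0.639). The other Extraembryonic Mesoderm cells have the lowest depth of the 3 groups, and its part in that order was not tested.

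Of the lists, the immediate early genes held the most higher genes against the rest of the class. These genes are switched on within minutes by growth factors or by handling. Of 10 tested members of the immediate early and heat shock list, FOS, FOSB, EGR1, ATF3, DUSP1 and DNAJB1 were higher and 0 lower, with a median log2 fold change of 1.62. Within E20 5 of 9 were higher, with a median of 1.55. The median over all genes was 0.50 within E20 and 0.04 against other days, so the list medians have unlike baselines. EGR4, ZFP36, NR4A1, MAFF and BTG2, which are also known as rapidly induced genes, were among the 15 leading genes.

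DUSP1, a phosphatase that shuts off MAP kinases, had 1754, 1577, 2729, 2278, 3133 and 1139 CPM in libraries 34 to 39 of cluster 22. Other-day Extraembryonic Mesoderm had 16.7 to 283 CPM, and the other E20 cells of the class 122, 178, 2.05, 215, 132 and 42.7 CPM. EXMC of E20 had 1289, 1414, 384, 624, 1442 and 1448 CPM. Cluster 22 and EXMC of E20 thus overlapped, and both were above the other Extraembryonic Mesoderm cells of the same libraries. NR4A1, an orphan nuclear receptor, showed the same order, with 1016 to 1967 CPM in cluster 22, 973 to 3821 CPM in EXMC of E20 and 12.3 to 821 CPM in the other cells of its class at E20. EGR4 was at 21.6 to 273 CPM in cluster 22 and at most 3.42 CPM in those other cells. An EGR4 count was found in 17 of 71 cluster 22 cells, and the 5 highest cells held 87.0% of the counts. In EXMC of E20 19 of 57 cells held a count, and the log2 fold change of cluster 22 against EXMC was -0.28 ± 0.56.

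Other genes higher against the rest of the class were of several kinds. HOPX, a homeodomain protein without DNA binding, had 227, 257, 294, 189.9, 378 and 333 CPM against 16.8 to 77.2 CPM in other days. LUM, the proteoglycan lumican, had 5893 to 13907 CPM against 3231 to 6151 CPM, and VIM, vimentin, 2409 to 3564 CPM against 617 to 1460.2 CPM. POSTN, LUM, SPARC and VIM were the 4 higher genes of the 13 of the matrix list, and OGN and ASPN the lower ones. WNT2, a ligand of early mesenchyme, had 262 to 651 CPM against 31.5 to 218 CPM and was the single higher gene among 16 of the WNT list.

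Developmental lists differed in the same comparison, beside 3.68% of all genes higher and 9.21% lower. In the cardiac and lateral plate list MYL7, TNNT2 and ISL1 were lower and 0 higher among 6 tested, with a median log2 fold change of -1.24. TNNT2 was thus higher than in EXMC but lower than in other-day cells of its class. Within E20 TNNI1 was higher and 0 lower among 3 tested of that list. BMP4 and PITX1 were lower and 0 higher among 11 extraembryonic mesoderm factors. Among 21 HOX genes HOXD4 was lower and 0 higher. In the hedgehog list PTCH1, HHIP and SMO, the receptor side of the pathway, were lower among 4 tested. PDGFRA and ANGPT2 were higher among 10 ligands and receptors of the VEGF, PDGF and KIT list. Proliferation genes were again low, with 7 of 14 lower and 0 higher and a median log2 fold change of -1.49. Within E20 CCNB2 alone was lower among 11 tested, with a median of -2.04.

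Some leading genes have known homes elsewhere. LAIR2, a soluble collagen-binding decoy receptor of trophoblast and immune cells, had 210.1, 180.4, 763, 302, 273 and 2877 CPM in cluster 22. EVT cells of the same embryo had 8759 CPM when pooled. A LAIR2 count was found in 70 of 71 cluster 22 cells, and the 5 highest cells held 80.6% of the cluster's counts. Nearly all other E20 cells held one too: 55 of 57 EXMC, 24 of 26 other Extraembryonic Mesoderm and 160 of 165 CTB cells. The median cell was at 114 CPM in cluster 22, 75.6 CPM in EXMC, 68.9 CPM in the other Extraembryonic Mesoderm cells and 94.4 CPM in CTB. LAIR2 has a close paralog, LAIR1, that could share reads. MMP12, a macrophage elastase, had 34.4 to 162 CPM against a median of 2.39 CPM in other days, but the other E20 cells of the class had 26.6 to 550 CPM and the log2 fold change within E20 was -0.02. The difference in MMP12 was therefore seen against other days only. AOC1, diamine oxidase, INSL4, a placental insulin-like peptide, and PPP1R3C, a glycogen-targeting subunit, had log2 fold changes of 4.03, 3.90 and 3.10 against other days. Within E20 they were 1.66 ± 0.88, 1.95 ± 1.09 and 4.62 ± 1.65, and AOC1 rose by 2.72 ± 0.76 in CTB of E20 (adjusted p = 0.00765, edgeR).

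Because cluster 22 is almost all E20, the same genes were looked up in cells of E20 that lie outside it. EXMC of E20 (5 libraries, 55 cells) was tested against EXMC of 6 other days (26 libraries, 1062 cells) with edgeR's quasi-likelihood test and Benjamini-Hochberg adjustment. At an adjusted p under 0.05, 1333 of 11530 genes (11.6%) rose and 1713 (14.9%) fell. CTB of E20 (6 libraries, 165 cells) was tested in the same way against CTB of other days (24 libraries, 335 cells), and 884 of 10213 genes (8.66%) rose and 1308 (12.8%) fell. These p-values measure spread between libraries, of which several share an embryo, and do not extend to other E20 embryos.

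Most genes low in cluster 22 against other-day cells of its class also fell in the other E20 cells. Of the 940 genes, 932 were tested in EXMC and 548 (58.8%) fell while 10 (1.07%) rose, with a median log2 fold change of -1.24. In CTB 890 were tested and 538 (60.4%) fell, with a median of -1.28. Of the 376 genes higher in cluster 22, 372 were tested in EXMC and 156 (41.9%) rose while 7 (1.88%) fell, with a median of 0.74. In CTB 328 were tested and 82 rose, with a median of 0.44. The cells compared are different, but the libraries and the embryo are the same, so these shares cannot be read as independent of the library code.

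Among the named genes ATP8, ND3 and ATP5ME were lower in cluster 22 and fell in both other classes. ATP8, a small subunit of the ATP synthase encoded by mitochondrial DNA, had 9.89, 4.36, 4.12, 2.36, 2.96 and 6.56 CPM in cluster 22, and other-day libraries of the class had 578 to 1426 CPM. EXMC of E20 had 1.21 to 9.49 CPM, as low as cluster 22. ATP8 overlaps its neighbour on the mitochondrial genome, so its counting is uncertain. The log2 fold change was -7.85 ± 0.32 in cluster 22, -7.81 ± 0.61 in EXMC (adjusted p = 2.36e-12) and -7.43 ± 0.51 in CTB (adjusted p = 8.81e-15, edgeR's quasi-likelihood test for both). A gene of the respiratory chain's first complex, ND3, had 121 to 268 CPM against 1516 to 3129 CPM, and the nuclear subunit gene ATP5ME 29.998 to 41.8 CPM against 373 to 537 CPM. All 3 fell in EXMC and CTB of E20 as well.

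KISS1 and ANGPT2 went otherwise. KISS1 had a log2 fold change of 0.33 ± 0.99 between E20 and other days in EXMC (adjusted p = 0.848, edgeR's quasi-likelihood test) and of 1.11 ± 0.81 in CTB (adjusted p = 0.362). ANGPT2 had -0.92 ± 1.00 in EXMC (adjusted p = 0.542, edgeR) and -1.15 ± 1.24 in CTB (adjusted p = 0.574). Neither passed the test outside the cluster, which does not show that the days were alike. The difference between cluster 22 and the other classes in these changes was not tested.

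Of 10 genes of the immediate early and heat shock list 1 rose in EXMC of E20 (DUSP1, list median 0.16) and 1 in CTB (FOS, list median 0.17), beside 11.6% and 8.66% of all genes tested. Of the genes that follow, DUSP1, NR4A1 and EGR4 are from the leading genes of cluster 22, and HOPX and WNT2 are from the amnion and WNT lists. Among the 15 leading genes on the higher side against other days, 6 rose in EXMC of E20 and 0 fell. DUSP1 rose by 2.02 ± 0.42 on the log2 scale in EXMC of E20 (adjusted p = 0.000409, edgeR's quasi-likelihood test) and had 0.77 in CTB (adjusted p = 0.352). NR4A1 rose in both, by 1.43 ± 0.42 (adjusted p = 0.0109, edgeR) and 1.45 ± 0.37 (adjusted p = 0.00369, edgeR), and so did EGR4, by 3.35 ± 0.69 and 2.89 ± 0.74 (adjusted p = 0.000353 and 0.0037, edgeR). HOPX rose by 2.23 ± 0.35 and WNT2 by 1.82 ± 0.31 in EXMC (adjusted p = 9.11e-06 and 2.41e-05, edgeR). In cluster 22 the log2 fold changes against other days were 4.39 ± 0.42 for DUSP1, 3.01 ± 0.34 for NR4A1, 6.46 ± 0.85 for EGR4, 2.84 ± 0.30 for HOPX and 1.75 ± 0.28 for WNT2. These 5 genes thus rose in EXMC of E20 too, and whether they differ between the cell groups was not tested.

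Genes higher in cluster 22 than in EXMC can be read beside the change of EXMC itself, though both values use the same EXMC sums. CXCL12 fell by 3.41 ± 0.84 in EXMC of E20 against other days (adjusted p = 0.00252, edgeR's quasi-likelihood test), SFRP1 fell by 3.04 ± 0.92 (adjusted p = 0.013, edgeR) and COL11A1 fell by 4.82 ± 1.47 (adjusted p = 0.0134, edgeR). The log2 fold change of AQP1 in EXMC was -4.78 ± 1.14 (adjusted p = 0.00179, edgeR). On the lower side P2RY14 rose by 3.49 ± 0.66 in EXMC of E20 (adjusted p = 0.000127, edgeR) and HOXA10 by 1.20 ± 0.23 (adjusted p = 0.000116, edgeR). POSTN, ANGPT2, LRRTM3 and CRABP2 did not pass that test in EXMC.

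**Figure D5:**
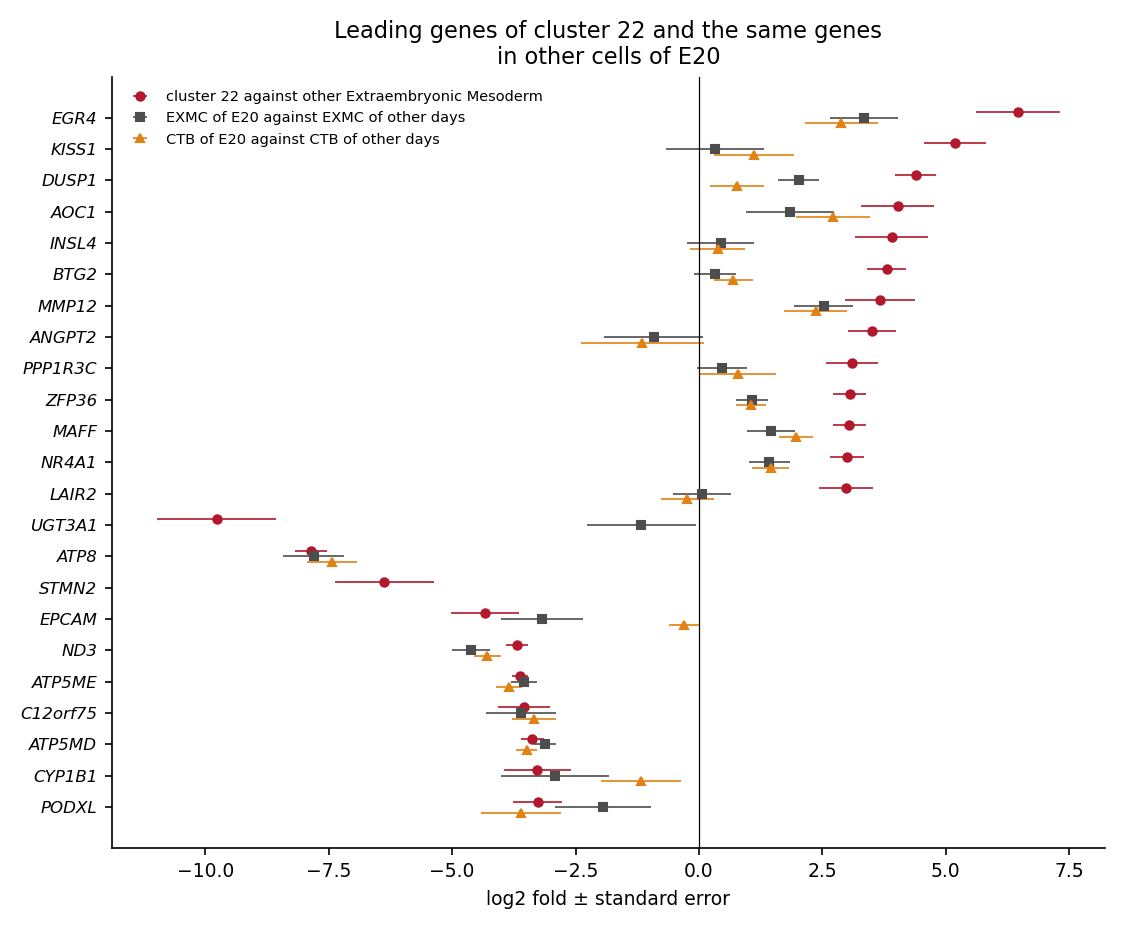
Log2 fold change with its standard error for leading genes of cluster 22 against other-day Extraembryonic Mesoderm, beside the change of the same genes between E20 and other days in EXMC and in CTB. KISS1 is at 5.20 in cluster 22 and at 0.33 and 1.11 in EXMC and CTB, while ATP8 lies near -7.85, -7.81 and -7.43 in all 3.

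Other genes lower in cluster 22 than in other-day cells of its class were UGT3A1, STMN2, EPCAM, C12orf75, ATP5MD, CYP1B1 and PODXL. UGT3A1, a glycosyltransferase, had a count in library 35 alone (0.397 CPM), against 0 to 303 CPM (median 97.3) in other days. EPCAM, an epithelial adhesion molecule, had 2.47, 24.6, 1.18, 1.09, 1.69 and 0.312 CPM against 19.1 to 214 CPM, and it fell in EXMC of E20 too (-3.18 ± 0.84, adjusted p = 0.00463, edgeR's quasi-likelihood test). PODXL, a sialomucin of mesothelium and vessels, had 0 to 36.3 CPM against 45.7 to 289.7 CPM. Against the other E20 cells of the class, the log2 fold change of PODXL turned to 1.88 ± 1.81, less than 2 standard errors from 0.

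Markers of other cell types were checked as whole lists in the cluster 22 cells of E20. The blood and macrophage list summed to 0.846 to 42.8 CPM over the libraries, with GATA1, HBZ, CD74 and C1QA at 0. The primitive streak list summed to 0 to 12.5 CPM, with TBXT, EOMES, LHX1, GSC and FGF8 at 0, and NANOG, SOX2 and PRDM14 of the epiblast list were at 0. The trophoblast list summed to 322 to 772 CPM, with CYP19A1, ELF5 and XAGE2 at 0, and EXMC of the same embryo had 222 to 542 CPM. Of 11 blood and macrophage genes 10 were under 10 CPM.

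Other lists were well above 0. The mesothelium list summed to 870 to 1833 CPM (median 1469), beside a median of 1037 CPM in EXMC. UPK3B, MSLN and TBX18 were at 0, and 8 of its 12 genes were under 10 CPM. Of 5 tested mesothelium genes PODXL and BNC1 were higher than in EXMC and PDPN lower, with a median log2 fold change of 2.29. Against other days of the class PODXL was lower, 0 were higher and the median was -0.51. The amnion list summed to 4396 to 10947 CPM (median 6837), beside medians of 10229 CPM in EXMC and 2033 CPM in the other Extraembryonic Mesoderm cells of E20, with VTCN1 and WNT6 at 0. Most of that sum was IGFBP3, which encodes a binding protein of insulin-like growth factors, at 3440 to 10170.5 CPM. The epithelial list summed to 621 to 1674 CPM (median 1275), beside medians of 278 CPM in EXMC and 703 CPM in the other cells of the class. Most of it was the keratin gene KRT19, at 566 to 1667 CPM. KRT19 is also a member of the mesothelium list, so the mesothelium and epithelial sums share it and are not separate signals. The smooth muscle list had a median sum of 1042 CPM, beside 2533 CPM in EXMC, and the epiblast list 26.7 CPM beside 31.7 CPM. IGFBP3 and KRT19 were singled out after their values were seen. The part of such cells in the results was not tested.

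The yolk sac endoderm list was uneven, with sums of 0 to 1458 CPM (median 44.98), and FOXA2 was at 0. Library 35 held most of it. APOA1, a plasma apolipoprotein, had 30.5, 876, 91.2, 54.2, 0.846 and 0 CPM, and TTR, transthyretin, 284 CPM in library 35 and at most 5.08 CPM elsewhere. KISS1, POSTN and ANGPT2 were not highest there. Without library 35 the log2 fold change against EXMC was 7.17 beside 6.25 for ANGPT2 and 8.53 beside 7.26 for CXCL12, and that of KISS1 against other days of the class was 5.37 beside 5.20.

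The endothelial list had sums of 522 to 1322 CPM, 0 of 12 genes at 0, and 264 to 1047 CPM in EXMC. ESAM, an endothelial adhesion molecule, had 67.6, 200.5, 89.99, 28.7, 41.5 and 138 CPM and log2 fold changes of 1.74 ± 0.47 against EXMC and 2.57 ± 0.55 against other days. KDR, the VEGF receptor of vessels, had 92.3, 237, 319, 43.3, 128 and 94.3 CPM. EGFL7, ETV2 and ESAM were the 3 higher genes of 7 tested against other days, and the lumen marker PLVAP had at most 0.588 CPM outside library 35, where it had 51.2 CPM. The median log2 fold change of those 7 genes was 2.22, and library 35 again held most of a marker.

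The paired DNA part of the method was recorded for 18 of 71 cluster 22 cells of E20 (25.4%, interval 15.8 to 37.1). It was recorded for 7 of 26 other Extraembryonic Mesoderm cells (26.9%) and 17 of 57 EXMC cells (29.8%), so the mesodermal groups differed little, while EVT stood at 79.3%. No DNA measurement was analysed here.

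The 3 cells of cluster 22 outside E20 resembled it in part. All 3 had 0 KCNK17 counts. The E22 cell of library 31 had 623 CPM of KISS1 and 4901 CPM of POSTN. The E22 cell of library 30 had 0 CPM of KISS1 and 6031 CPM of POSTN, and the E18 cell of library 44 had 22.6 CPM of KISS1 and 11408 CPM of POSTN. All had high ATP8 (647, 1233 and 323 CPM), unlike every E20 library of the cluster. One of the 3 cells therefore had a KISS1 level within the range of the E20 libraries.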

How the data were processed

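Single-cell RNA was read by scChaRM-seq in 44 libraries of 9 embryos. The authors deposited 1 table of raw counts per gene and cell (21834 genes, 16240 with a symbol) and an annotation with classes, clusters, embryo and sex. Per the submitters' processing notes, cutadapt 1.15, STAR 2.6.0a and HTSeq 0.10.0 were used. No doublet caller was run. Not given in the sources used here: build, doublet handling, and whether a count is a read or a molecule. All members come from the authors' clusters.

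Counts were summed per library and cell group and fitted with edgeR 4.0.16 in R 4.3.3 (filterByExpr, TMM, quasi-likelihood), with at least 5 cells per library, or 10 for the other Extraembryonic Mesoderm cells. Library was a block in the E20 comparisons of cluster 22. DESeq2 1.42.0 gave alternatives, Python 3.11.15 the shares and figures. CPM are counts per 1000000 counts of the summed cells, and SE are the fit's. Floors are 3 counts, and 95% exact binomial intervals cover counting error only. Named were KCNK17, members of 34 lists (412 of 430 genes in the table) and, in each comparison of cluster 22, the 15 highest and 10 lowest log2 fold changes among genes with a symbol, 50 CPM in the higher group and the same side in every E20 library. The members and lists were chosen with earlier results of these data known. A few genes that the rule names are not reported here. The scripts were tested on simulated data. The within-E20 comparison of the class, at 3 cells per library, was added after the data were seen.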

Additional observations from a re-analysis of the deposited data

Results flagged for a closer look

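Of 50 genes checked over the 6 cluster 22 libraries of E20, 8 had 1 library whose gap to the nearest of the others was large against the whole range. Chance alone gives this for about 5% of groups of normally distributed values. Several of these genes had values at or near 0, so the 8 of 50 cannot be set against that share. Of the 8, 3 single out library 35, with 18 cells of the cluster. There EPCAM stood at 24.6 CPM while the other 5 libraries had 0.312 to 2.47 CPM, GLB1L3 at 17.1 CPM against 0 to 1.69 CPM, and UGT3A1 at 0.397 CPM against 0 in the other 5. The UGT3A1 value came from 2 counts in 1 cell, under the floor of 3 counts. Library 39, with 7 cells, had LAIR2 at 2877 CPM against 180.4 to 763 CPM and GNA14 at 34.6 CPM against 0 to 3.37 CPM. Library 38, with 9 cells, had TRIB3 at 41.9 CPM against 0.182 to 11.1 CPM and FAM163B at 44.4 CPM against 0.824 to 12.5 CPM. Library 34, with 10 cells, had MGARP at 147 CPM against 11.4 to 48.2 CPM. In each case 1 library was high and none was low.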

How the results depend on the processing

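Against EXMC, leaving out 1 library in turn gave 516 to 641 higher and 469 to 581 lower genes beside 407 and 374, since fewer libraries have to lie on 1 side. Lower genes numbered 569 without library 35, 565 without library 37 and 581 without library 39, and higher genes 641 without library 39. With at least 2 cells per library, which takes in library 38, 110 were lower and 393 higher. Against the rest of the class, leaving out 1 library gave 415 to 476 higher and 993 to 1059 lower genes, and the other E20 cells alone gave 285 and 47, of which 71 and 15 were shared with the comparison across days. With those cells the log2 fold change of MMP12 was -0.015 and that of PODXL 1.88. E20 EXMC against E18 and E21 alone gave 992 higher and 961 lower genes beside 1333 and 1713, and leaving out 1 library 1130 to 1278 and 1517 to 1766. E20 CTB gave 1591 and 2569 without a filter on low counts beside 884 and 1308, and 684 to 801 and 1124 to 1223 with 1 library left out. DESeq2's Wald test called 1394 and 2166 genes in EXMC and 844 and 1716 in CTB. The E20 share was 46.1% over EXMC and Extraembryonic Mesoderm cells. The cause of these moves was not tested except where stated. Median log2 fold changes over all genes moved by more than 0.1 within E20 (0.50) and without a filter in EXMC (-0.48) and CTB (-0.21). The 26 other E20 cells of the class, the 2 EXMC cells of library 38 and the single E20 embryo limit what these files can show.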
